A study of Arabidopsis thaliana with 6 samples.

Results

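The bHLH rows are the 155 of 1880 rows of an Arabidopsis thaliana TF panel that the deposited table assigns to the bHLH family. Transcripts were measured by quantitative RT-PCR with SYBR Green, with 1 primer pair per gene, and each value is a Ct, the cycle at which the signal crossed a threshold, so that a low Ct means much transcript. There were 6 groups. The tanmei mutant (allele tan1-2), which does not form somatic embryos and is affected in TAN, a gene for a WD repeat protein, was sampled as explants (0 d) and after 5 and 10 d of culture, and the highly embryogenic wild type Col-0 was sampled at the same times. Explants were immature zygotic embryos taken 10 to 12 days after pollination, and both genotypes were cultured on E5 medium with 5 µM 2,4-D, a synthetic auxin, so that every cultured group carried the auxin and no culture without it was analysed here. Each group is 1 deposited mean per row, which the authors formed from the 3 biological replicates that gave a Ct. The spread between replicates is therefore unknown, no difference below was tested, and the shares of the family past 2-fold are given beside the same shares over all rows. TAN itself is no row of the panel, so the mutation could not be checked in these values.

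The bHLH proteins form 1 of the large TF families of plants. Their basic region contacts DNA at E-box motifs, and their helix-loop-helix region joins them in pairs, so that members without a working basic region can hold DNA-binding members back. Family members act in root hair growth, light and jasmonate signalling, stomata, iron uptake, anther and fruit development, and in the auxin-dependent vascular and root initials of the zygotic embryo.

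The deposited codes of single rows were not secure. The study's table of modulated genes lists the expression profiles of 75 bHLH genes, and 69 of these profiles were found again among the deposited rows within 1 cycle, at a median distance of 0.20 cycles. Of the 69 profiles, 61 lay on rows labelled bHLH, 5 on rows labelled bZIP and 3 on rows labelled BPC/BRR. In all 69 cases the row bore another code than the table of modulated genes gave, and the same profiles lay a median of 4.37 cycles from the row of their own code. Another 4 bHLH rows carried profiles that the table lists under the B3 family, and 90 bHLH rows had no profile linked. Which of both sets of codes is right was not settled here. Rows are therefore called by their deposited code, and a gene name stands beside it only as the name of the profile found on that row. The family is described first as a whole, since most bHLH profiles stayed on bHLH rows.

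To compare columns, each Ct was set against the median Ct of its block, 1 of 5 blocks of equal size into which the rows fall in order. The level is the block median minus the Ct, on the log2 scale, so that a difference of 1 is 2-fold if amplification doubles the product in each cycle. Rows are said to rise or fall where they moved at least 2-fold. The bHLH rows lay in the first block (83 rows) and the second (72 rows), beside 597 rows of other families. A row without a Ct was set to 40, a mean of 40 counted as no Ct, and a change that involves such a row is a lower bound in size. The explants and cultures are whole tissue, in which fewer cells of a type and less RNA per cell cannot be told apart.

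The bHLH rows sat below the middle of their blocks in every group. In tanmei the median level was -0.94 at 0 d, -0.95 at 5 d and -1.44 at 10 d. In Col-0 it was -1.24 at 0 d, -1.19 at 5 d and -1.11 at 10 d. The other rows of the same blocks had medians between 0.09 and 0.36 in the 6 groups. The tanmei median was thus the lowest of the 6 at 10 d, while the Col-0 median moved by little. Levels of different rows also depend on the primer pairs. Within the family the spread was wide: in tanmei explants the middle of the rows lay between -4.73 and 2.66 (quartiles), and in Col-0 explants between -5.82 and 2.25. In all, 47 rows (30.3%) lay above their block median in every group and 64 (41.3%) below it in every group, against 34.5% and 35.1% of all 1880 rows. The plot of levels by group shows both the low median and this spread.

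**Figure D1:**
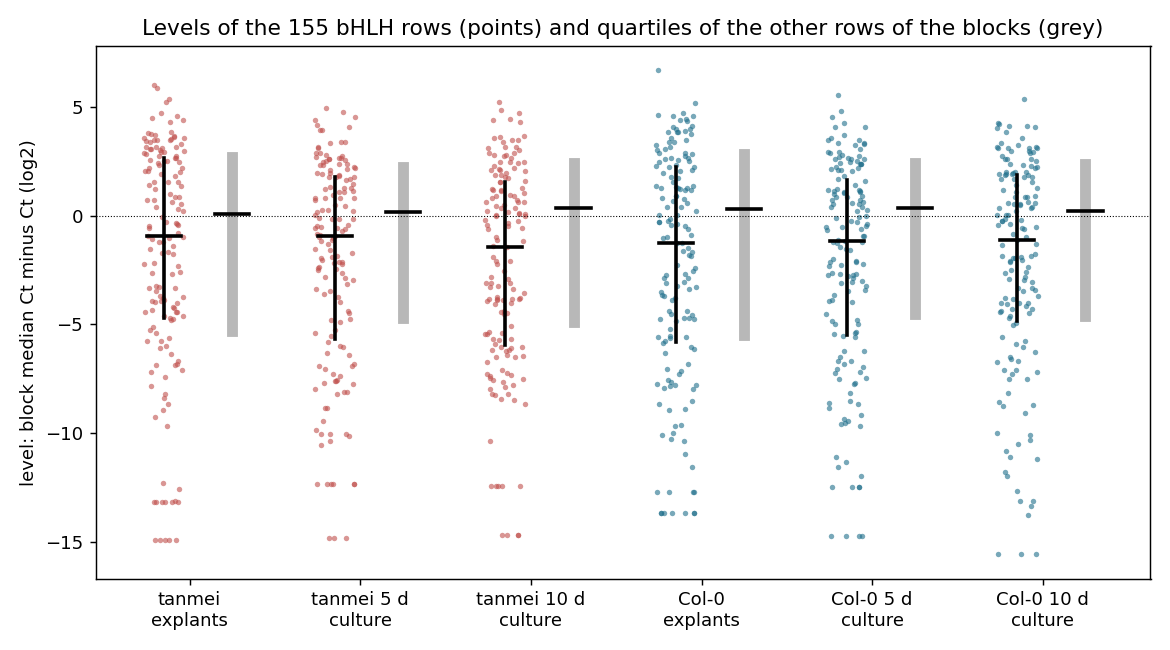
Level of each of the 155 bHLH rows (block median Ct minus Ct, log2) in 3 tanmei groups (red) and 3 Col-0 groups (blue), with black bars for the bHLH median and quartiles and grey bars for the quartiles of the 597 other rows of the same blocks. The bHLH median lies between -1.44 and -0.94 in the 6 groups and the median of the other rows between 0.09 and 0.36.

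A Ct below 40 was obtained for 144, 146 and 146 bHLH rows in tanmei at 0, 5 and 10 d, and for 144, 147 and 150 rows in Col-0. All 6 groups gave a Ct for 131 rows, which is 84.5% of the family against 85.9% of all rows, and 1 bHLH row gave none in any group. Among the rows detected in every group, the highest and lowest level over the 6 groups differed by a median of 3.85 on the log2 scale, against 3.11 over all such rows of the panel. In 10 of the 131 rows this range was below 1. The smallest range, 0.45, belonged to row AT2G46510, which carried the profile of LHW, a partner of the vascular regulator TMO5. Its Ct was 20.8, 21.2 and 20.9 in tanmei and 22.3, 21.0 and 20.2 in Col-0 at 0, 5 and 10 d. This row was chosen after its values were seen.

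After culture of the tanmei explants more bHLH rows were lower than higher, as in the panel as a whole. At 5 d, 49 of 151 rows (32.5%) were at least 2-fold higher than in the explants and 65 (43.0%) at least 2-fold lower, against 28.7% and 39.4% of all rows. At 10 d, 40 of 151 rows (26.5%) were higher and 66 (43.7%) lower, against 31.1% and 37.4%. The median change of the bHLH rows was -0.52 at 5 d and -0.67 at 10 d, against -0.44 and -0.21 over all rows. Changes of at least 10-fold in either direction were found in 37 rows at 5 d (24.5%, against 22.8% of all rows) and in 44 rows at 10 d (29.1%, against 26.2%). With members taken by the family of the linked profile the direction turned, with 43.5% higher and 27.5% lower of 69 rows at 5 d and 42% higher and 31.9% lower at 10 d. That set holds only profiles that the study chose as changed in Col-0.

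In Col-0 the family was split almost evenly at 5 d against the block median, which removes any shift shared by most rows of a block. At 5 d, 51 of 153 rows (33.3%) were at least 2-fold higher than in the explants and 53 (34.6%) lower, against 28.9% and 38% of all rows. At 10 d, 47 of 152 rows (30.9%) were higher and 57 (37.5%) lower, against 29% and 41.1%. The blocks differed in direction at 10 d, with 22 higher and 36 lower in the first and 25 higher and 21 lower in the second. The median change was -0.24 at 5 d and -0.17 at 10 d, against -0.37 at both times over all rows. Changes of at least 10-fold occurred in 42 rows at 5 d (27.5%, against 21.2%) and in 47 rows at 10 d (30.9%, against 24%), of which 28 were rises and 19 falls. These splits depend on the scaling. With the median of the whole column, 59 rows were higher and 50 lower at 10 d, against 32.4% and 35.4% of all rows. Without centring on the block, the 5 d split was 58 higher and 45 lower, against 35.7% and 28.1% of all rows. The 10 d split was then 68 higher and 34 lower, against 43.1% and 21.9% of all rows.

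Between 5 and 10 d fewer rows moved. In tanmei 21 of 148 rows (14.2%) were higher at 10 d than at 5 d and 36 (24.3%) lower, while over all rows the order was the other way round, with 20% higher and 15.6% lower. In Col-0 28 of 153 rows (18.3%) were higher and 29 (19.0%) lower, against 17.4% and 18.1%. The first block had 13 higher and 20 lower, and the second 15 higher and 9 lower. The even Col-0 split rests on the scaling: it was 37 higher and 25 lower with the block median over rows of other families, 40 and 22 with the median of the whole column, and 57 and 14 without centring. Over all rows these scalings gave 18.5% higher and 16.7% lower, 19.9% and 16%, and 29.1% and 9.53%. The tanmei split stayed on the lower side under the other scalings.

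**Figure D2:**
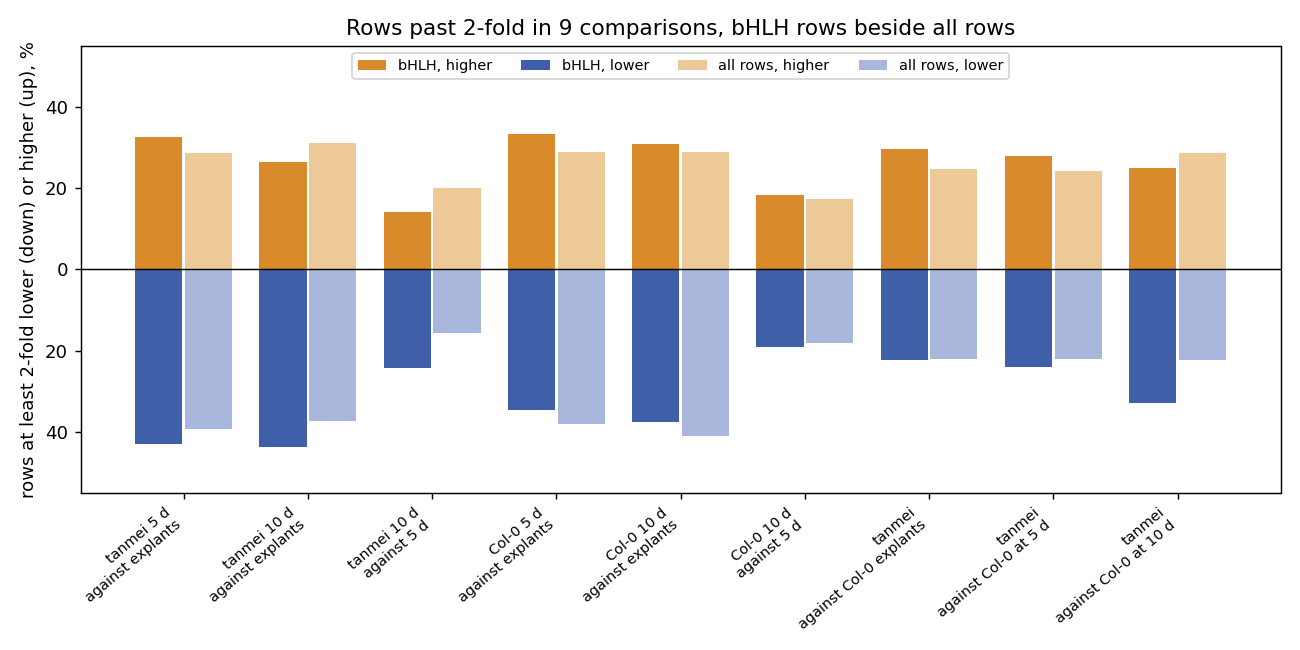
Share of rows at least 2-fold higher (up) or lower (down), in percent of the rows counted, for bHLH rows (dark bars) and all rows of the panel (pale bars) in 9 comparisons. In tanmei against Col-0 at 10 d 32.9% of bHLH rows were lower, against 22.4% of all rows.

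The courses over time were followed for 151 bHLH rows detected in tanmei. Of these, 31 (20.5%, against 25.2% of all rows) moved less than 2-fold in both steps. After a rise at 5 d, 24 rows (15.9%, against 16.3%) then moved less than 2-fold, 17 (11.3%, against 5.71%) fell again and 8 (5.30%, against 6.47%) rose further. After a fall at 5 d, 39 rows (25.8%, against 23.5%) then moved less than 2-fold, 15 (9.93%, against 6.58%) fell further and 11 (7.28%, against 9.03%) rose again. A rise followed by a fall was thus the tanmei course with the largest share relative to the whole panel.

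In Col-0 154 rows could be followed. Less than 2-fold in both steps was found for 41 rows (26.6%, against 24.6%). After a rise at 5 d, 29 rows (18.8%, against 17.6%) then moved less than 2-fold, 12 (7.79%, against 6.54%) fell again and 10 (6.49%, against 4.52%) rose further. After a fall at 5 d, 27 rows (17.5%, against 22.7%) then moved less than 2-fold, 14 (9.09%, against 8.99%) rose again and 12 (7.79%, against 6.05%) fell further.

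With weakly detected rows counted, tanmei differed from Col-0 in a larger share of the bHLH rows than of the panel as a whole. At 10 d the bHLH rows were more often lower than higher in tanmei. In explants 44 of 148 rows (29.7%) were at least 2-fold higher in tanmei and 33 (22.3%) lower, against 24.6% and 22% of all rows. At 5 d, 42 of 150 rows (28%) were higher and 36 (24.0%) lower, against 24.1% and 22.1%. At 10 d, 38 of 152 rows (25%) were higher and 50 (32.9%) lower, against 28.7% and 22.4%. With a Ct below 35 in both groups, 27% of bHLH rows were higher and 19% lower in explants. The shares were then 25.4% and 21.5% at 5 d and 22.1% and 29% at 10 d. The same shares over all rows were not computed, so a larger share of changed rows is not shown among well-detected rows. The median difference between tanmei and Col-0 was 0.28 in explants, 0.10 at 5 d and -0.24 at 10 d, against 0.02, 0.08 and 0.21 over all rows. The excess of lower rows at 10 d was present in both blocks, with 21 higher and 27 lower in the first and 17 higher and 23 lower in the second. Without centring the split was 22 higher and 77 lower at 10 d, against 15.5% and 37.6% of all rows, and 78 higher and 22 lower in explants, against 44.5% and 11.9%.

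Large genotype differences were also more frequent, again with weakly detected rows counted. At least 10-fold in either direction separated tanmei from Col-0 in 23 bHLH rows in explants (15.5%, against 11.9% of all rows), in 23 rows at 5 d (15.3%, against 9.02%) and in 23 rows at 10 d (15.1%, against 11.3%).

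The responses to culture in the genotypes shared most of their direction. At 5 d, 34 of 150 rows (22.7%, against 20% of all rows) had risen 2-fold or more in both genotypes and 41 (27.3%, against 27.7%) had fallen in both. Opposite movements of at least 2-fold were found in 13 rows (8.67%, against 5.28%). At 10 d, 29 of 149 rows (19.5%, against 20.9%) were higher in both, 42 (28.2%, against 27.4%) lower in both, and 10 (6.71%, against 5.8%) moved in opposite directions. Across the bHLH rows, tanmei and Col-0 changes at 5 d had Pearson's r of 0.60 and Spearman's rho of 0.64 (150 rows that share the same 4 columns), against 0.68 and 0.68 over 1799 rows of the panel. At 10 d r was 0.61 and rho 0.66 (149 rows), against 0.63 and 0.66 over 1810 rows.

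By their median, the signed changes in tanmei lay below those in Col-0, more so at 10 d than at 5 d. At 5 d the change in tanmei was at least 2-fold greater (more upward) than in Col-0 in 35 rows (23.3%, against 24.5%). It was at least 2-fold smaller (more downward) in 49 rows (32.7%, against 27.1%). A fall that is smaller in this sense can be larger in size. At 10 d it was greater in 28 rows (18.8%, against 29.8%) and smaller in 59 rows (39.6%, against 27.2%). The median of tanmei minus Col-0 change was -0.20 at 5 d and -0.41 at 10 d for the bHLH rows, against -0.08 and 0.08 over all rows.

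**Figure D3:**
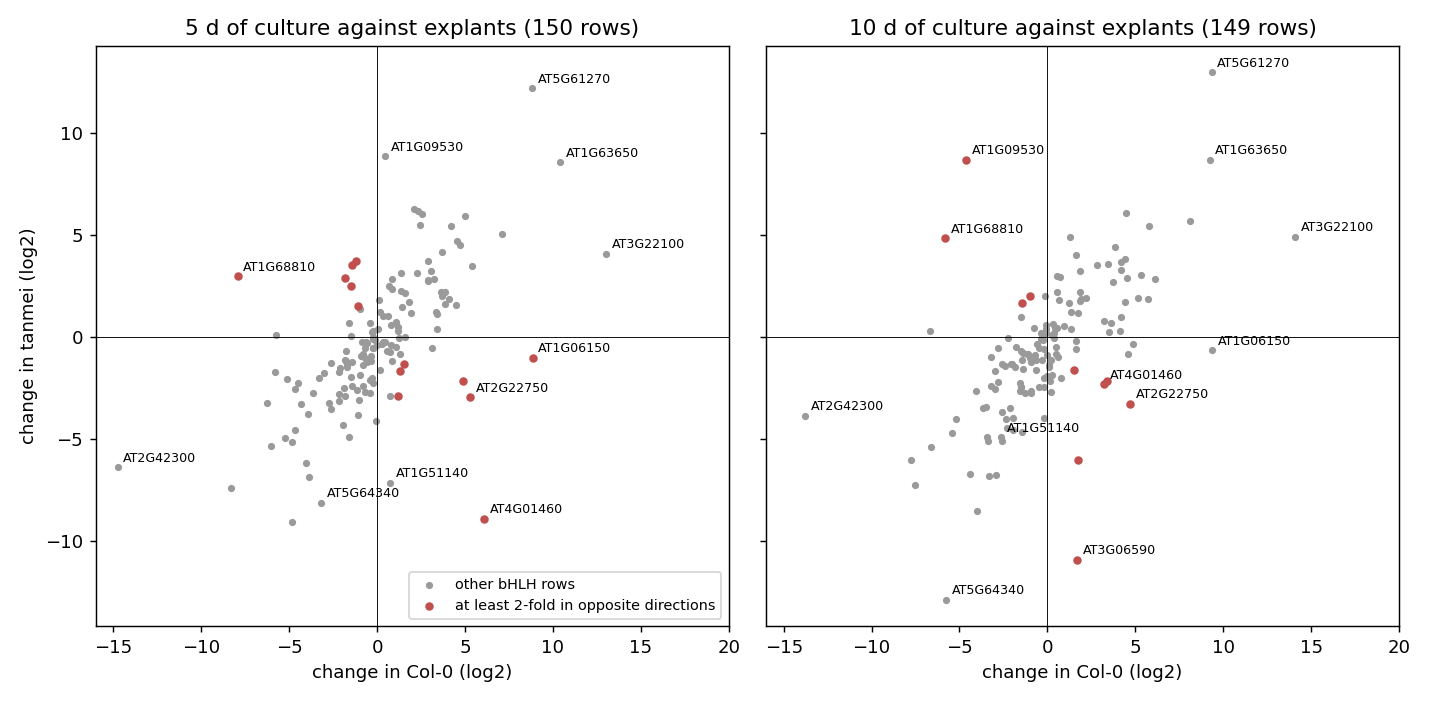
Change of each bHLH row in tanmei (vertical, log2) against its change in Col-0 (horizontal, log2) at 5 d (150 rows) and 10 d (149 rows) relative to the explants of the same genotype, with rows that moved at least 2-fold in opposite directions in red. The red rows, 13 at 5 d and 10 at 10 d, lie in the upper left and lower right.

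Rows without a Ct in explants gave the largest rises. Row AT1G63650 carried the profile of RSL4, which drives root hair elongation. It gave Ct 40 in explants of both genotypes, 31.5 and 31.5 in tanmei at 5 and 10 d, and 28.5 and 28.9 in Col-0. The rise at 5 d was at least 8.59 in tanmei and at least 10.42 in Col-0, and the Col-0 cultures stood above the tanmei cultures. Row AT5G61270, with the profile of RSL5 of the same subfamily, had no Ct in either explant, 28.6 and 27.8 in tanmei cultures and 31.4 and 30.2 in Col-0 cultures. Here the order was the other way round, and the 5 d rise was at least 12.22 in tanmei and at least 8.83 in Col-0. Row AT5G38860, with the profile of RSL2, had no Ct in either explant, 35.8 and 35.1 in tanmei cultures and 33.1 and 31.5 in Col-0 cultures.

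Some rows lacked a Ct only in the explants of 1 genotype. Row AT3G22100 gave 27.3, 23.3 and 22.6 in tanmei at 0, 5 and 10 d, and 40, 25.9 and 24.0 in Col-0. Its profile is listed for AT2G43140, a bHLH gene without a name in the reference. Its Col-0 rise at 5 d, at least 13.05, was the largest of the family in that comparison, while tanmei explants already held transcript and rose by 4.10. Row AT1G06150 gave 30.5, 31.6 and 31.4 in tanmei and 40, 30.1 and 28.7 in Col-0, but its profile is listed for VDD of the B3 family, so that it may be no bHLH gene. Row AT1G09530, without a linked profile, was the converse case, with 40, 31.2 and 31.5 in tanmei and 33.5, 31.9 and 36.2 in Col-0. It lies in order between rows that carried B3 profiles, so that it too may be no bHLH gene.

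The widest gap between the explants belonged to row AT3G06590, without a linked profile. Its Ct was 22.0 in tanmei explants, which put it among the well-expressed rows, and then 32.8 and 33.1 in tanmei cultures. In Col-0 it was 40, 40 and 36.4. The explants differed by at least 16.81 on the log2 scale, and tanmei fell by 10.72 at 5 d. The value rests on 1 deposited mean per group. The next largest positive explant differences were at least 11.47 for row AT3G22100 and at least 8.26 for row AT1G06150, both described above. AT4G21340, with the profile of UNE10, a PIF relative named after a fertilisation defect, followed at 5.75. AT2G22750, with the profile of bHLH109, a regulator that the study itself described in somatic embryogenesis, stood at 5.68. Rows lower in tanmei explants were AT1G09530 (at least -7.74 in size), AT1G68810 (-6.27), AT3G05800 (-5.15), AT5G57150 (-4.82) and AT1G10120 (-4.51, a row whose profile is listed for the B3 gene AT5G58280). The Ct of AT1G68810 in tanmei explants was weak, at 38.2.

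**Figure D4:**
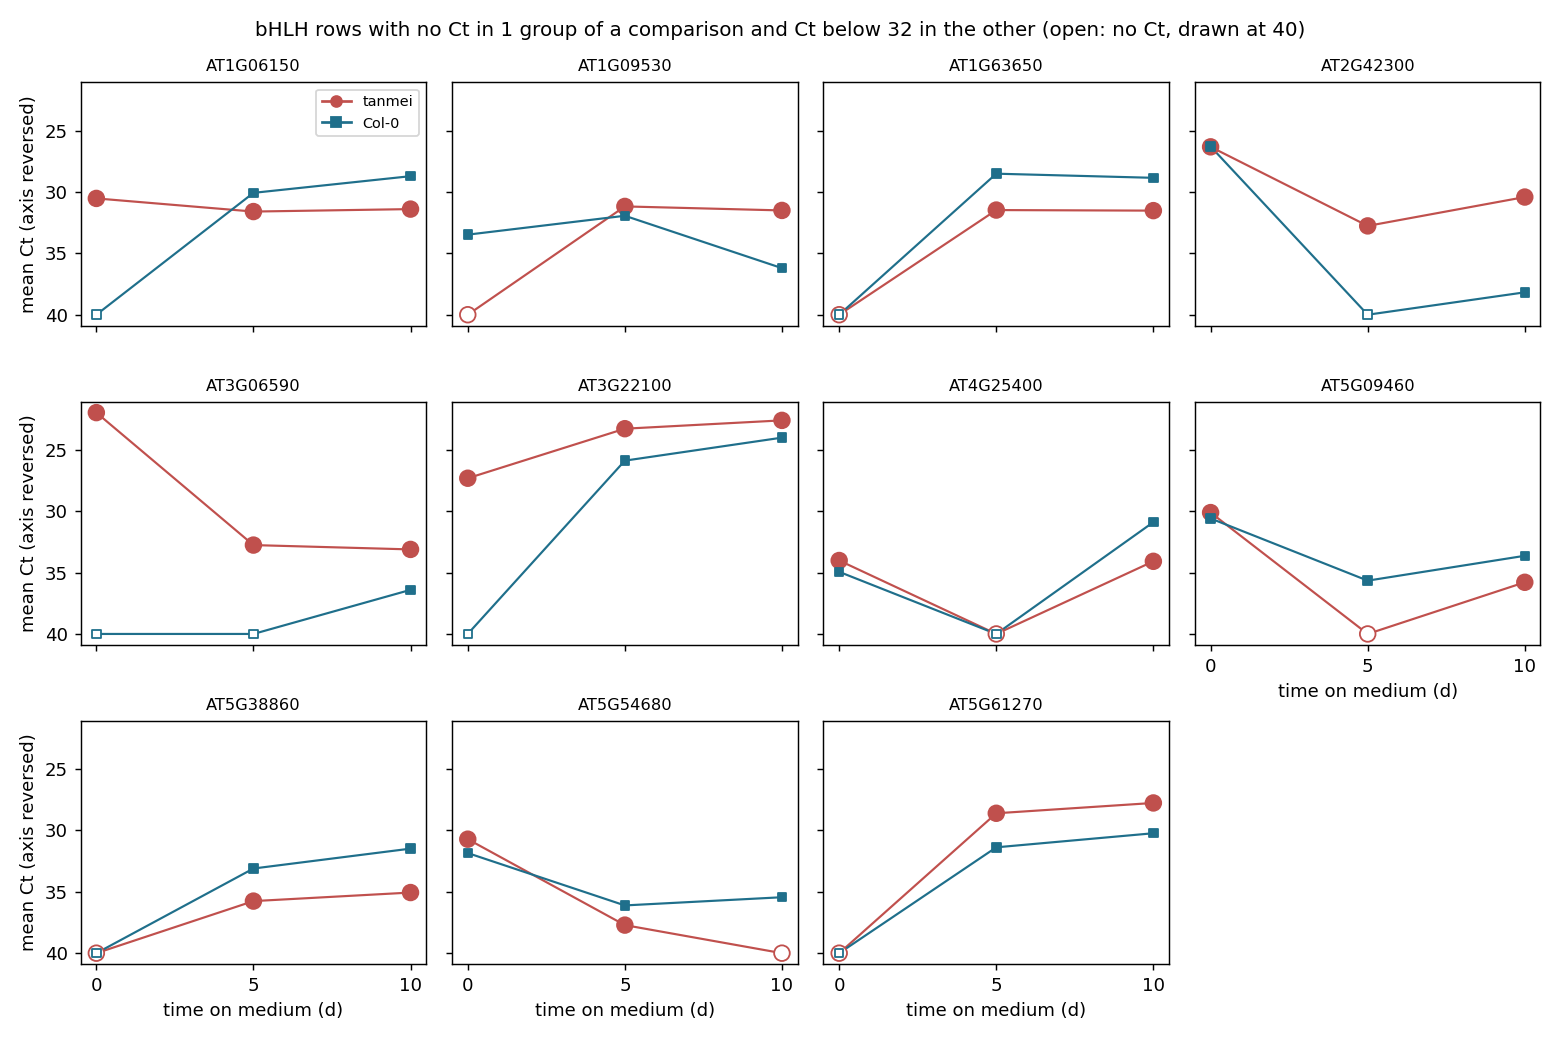
Mean Ct (axis reversed, so that more transcript is higher) at 0, 5 and 10 d in tanmei (red circles) and Col-0 (blue squares) for the 11 bHLH rows with no Ct in 1 group of a comparison and a Ct below 32 in the other; open symbols, drawn at 40, had no Ct. Rows AT1G63650 and AT5G61270 had none in either explant and 27.8 to 31.5 in the cultures.

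Falls were as steep. Row AT2G42300 gave 26.3, 32.8 and 30.4 in tanmei and 26.3, 40 and 38.2 in Col-0. The explant Ct was alike, with levels that differed by -1.24 after centring, and the change at 5 d was -6.37 in tanmei and at least -14.76 in size in Col-0, the largest Col-0 fall of the family. Row AT1G72210 gave 32.5 in tanmei explants and no Ct in either tanmei culture, against 30.0, 37.2 and 35.6 in Col-0. Row AT5G64340 gave 22.4, 31.4 and 36.1 in tanmei and 22.9, 26.3 and 28.2 in Col-0. It declined through both steps in both genotypes, with a change over 10 d of -12.90 in tanmei and -5.74 in Col-0. None of these 3 rows had a linked profile.

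Some rows were lowest at 5 d in both genotypes. Row AT4G25400 gave 34.0, no Ct and 34.1 in tanmei, against 34.9, no Ct and 30.9 in Col-0. Row AT5G09460 gave 30.1, no Ct and 35.8 in tanmei, against 30.6, 35.7 and 33.6 in Col-0. Row AT4G09820 gave 31.5, 37.7 and 36.3 in tanmei, against 30.8, 37.0 and 30.6 in Col-0, and row AT3G19500 gave 28.9, 32.2 and 31.8, against 28.7, 33.9 and 27.8. In Col-0 the rows AT4G25400, AT4G09820 and AT3G19500 were at least as high at 10 d as in explants or within 2-fold of them. Further tanmei rises at 5 d that ranked among the 5 largest were those of AT4G38070 (6.27 or more, Ct 34.6 at 5 d and none in explants) and AT5G43175 (6.17, Ct 33.7 in explants and 28.4 at 5 d).

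The listed genes of known role were read through the linked profiles. Of 88 genes in 14 lists, 34 genes of 12 lists had a profile on a bHLH row. The study chose these profiles because they changed in Col-0 cultures, so the counts in Col-0 are not independent evidence of a direction. The counts in tanmei are not free of this choice either, since the changes of both genotypes shared most of their direction. In tanmei cultures 12 of the 34 were higher at 5 d and 11 lower, against 28.7% and 39.4% of all rows, and 8 were higher and 13 lower at 10 d, against 31.1% and 37.4%. In Col-0 cultures 19 were higher and 7 lower at 5 d, against 28.9% and 38%, and 15 higher and 7 lower at 10 d, against 29% and 41.1%. No call of these genes turned from higher to lower or back under the other scalings, but calls were gained or lost, most of all without centring, where 14 of the 34 differed for Col-0 at 10 d against 5 d and 12 for Col-0 at 10 d against explants, MYC2 and MEE8 among them.

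Root hair genes of the RSL and LRL subfamilies gave the strongest rises among the lists, as described above for RSL4, RSL5 and RSL2. RSL1 (row AT5G54680), which acts early in root hair fate, moved the other way, with Ct 30.7, 37.7 and none in tanmei and 31.8, 36.1 and 35.4 in Col-0. Its name is the least secure, since its distance of 0.88 cycles was the largest of the linked bHLH profiles. LRL2 (row AT5G37800) gave 26.4, 26.9 and 26.4 in tanmei and 30.7, 27.5 and 27.0 in Col-0, so that its change at 5 d was 0.38 in tanmei and 3.40 in Col-0. LRL1 (row AT2G43140) changed by less than 2-fold in all 4 comparisons of cultures with explants.

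The lists of HLH-only PRE genes and of their antagonists are described next, with 2 and 4 linked genes. PRE2 (row AT5G53210), a growth-promoting HLH protein, gave 27.4, 23.5 and 24.4 in tanmei and 28.6, 24.2 and 23.9 in Col-0. TMO7 (row AT2G31220), a target of the auxin response factor MONOPTEROS in the embryo, gave 21.4, 20.2 and 20.6 in tanmei and 25.1, 20.7 and 19.1 in Col-0. The rise of TMO7 was 1.22 in tanmei and 3.36 in Col-0 at 5 d, from explants in which tanmei was 2.55 higher. AIF1, AIF2 and AIF3, which antagonise PRE proteins, all passed 2-fold upwards at 5 d in both genotypes, by 1.64, 2.26 and 2.83 in tanmei and by 3.84, 1.38 and 2.89 in Col-0. AIF4 (row AT1G29950) changed by -1.17 in tanmei and by -0.35 in Col-0. The study listed AIF4 among genes expressed in Col-0 explants only, whereas this row gave Ct 20.6 in tanmei explants and 23.1 in Col-0 explants.

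Regulators of the embryonic vasculature moved little in tanmei, and LHL1, LHL2 and SACL3 were past 2-fold in Col-0 at 5 d. LHW and its relatives LHL1 and LHL2, the TMO5 relative T5L1 and SACL3, which restrains this pathway, changed at 5 d by -0.41 to 1.19 in tanmei and by -0.02 to 1.93 in Col-0. LHL1 (row AT1G27660) was the 1 member higher in both genotypes at 5 d, at 1.19 in tanmei and 1.93 in Col-0. None of the 5 was lower by 2-fold at either time, and none differed by 2-fold between the explants against the block median. T5L1 in tanmei at 10 d lay just inside, at -0.99, and was past 2-fold lower under 3 of the other scalings, and without centring all 5 were at least 2-fold higher in tanmei explants.

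Of the jasmonate list 3 genes were linked, of which 3 were lower in tanmei at 5 d, and in Col-0 1 was higher and 2 lower. Of the PIF list 3 genes were linked, of which 1 was higher and 1 lower in each genotype. MYC2 (row AT1G68920), the central jasmonate-response factor, gave 19.7, 22.5 and 22.2 in tanmei and 21.6, 24.2 and 22.5 in Col-0, and JAM1 (row AT3G23210), a repressor of the same response, changed by -1.75 in tanmei and by -3.02 in Col-0 at 5 d. MYC4 (row AT4G36060) parted by genotype, at -1.68 in tanmei and 1.30 in Col-0. PIF1 (row AT2G41240), which holds back germination in the dark, gave 24.3, 27.6 and 29.2 in tanmei and 25.1, 28.3 and 28.6 in Col-0. PIF3 (row AT1G30670) changed at 10 d by -2.18 in tanmei and by 0.17 in Col-0. UNE10 rose by 2.00 in tanmei and by 3.71 in Col-0 at 5 d.

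The 2 linked stomatal lineage genes were lower at 10 d than in explants in both genotypes. MUTE (row AT3G47640), which ends stem cell divisions in the lineage, gave 27.3, 27.3 and 31.0 in tanmei and 27.0, 27.4 and 28.7 in Col-0. ICE1 (row AT4G00480), a partner of MUTE that also acts in cold response, gave 20.8, 24.3 and 26.7 in tanmei and 20.6, 22.0 and 22.8 in Col-0. ICE1 changed by -5.08 in tanmei and by -2.57 in Col-0 over 10 d, from explants that differed by -0.71.

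The gynoecium genes HEC2 and HEC3 rose at 5 d in both genotypes. HEC2 (row AT4G02590) gave 32.4, 28.8 and 34.0 in tanmei and 35.9, 31.4 and 31.0 in Col-0, so that its rise was lost in tanmei at 10 d and was 4.58 in Col-0. HEC3 (row AT5G51780) rose by 3.16 in tanmei and by 2.28 in Col-0 at 5 d.

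Of the listed genes, the pair for seeds and somatic embryos had the largest differences between the tanmei and Col-0 changes at 5 d. The study had itself listed bHLH109, and also RSL5, FBH4 and bHLH89, for profiles that differed between Col-0 and tanmei in these data. The genotype differences of these genes here are therefore no independent evidence. bHLH109 (row AT2G22750) gave 29.7, 32.7 and 33.2 in tanmei and 36.6, 30.3 and 30.0 in Col-0. The change at 5 d was -2.94 in tanmei and 5.29 in Col-0, so that tanmei stood above Col-0 in explants and below it in both cultures. MEE8 (row AT1G51140), needed for early embryo development, gave 19.9, 27.1 and 25.0 in tanmei and 23.5, 21.7 and 24.2 in Col-0. The study listed MEE8 among genes expressed in Col-0 explants only, which differs from the low tanmei explant Ct of this row. MEE8 is named here by the linked profile alone. The row changed by -7.14 in tanmei and by 0.74 in Col-0 at 5 d. The iron regulators bHLH115 and bHLH34 moved by less than 2-fold in all 4 comparisons of cultures with explants. Of the activators of the flowering gene CONSTANS, FBH3 (row AT1G74500) changed at 5 d by -2.42 in tanmei and by -1.45 in Col-0, and FBH4 (row AT3G19860) by 0.32 and 1.17. The tapetum gene bHLH89 (row AT1G27740) changed by -1.31 in tanmei and by 1.55 in Col-0. The lists of partners of MYB proteins in flavonoid and epidermal fate and of brassinosteroid genes had no linked profile.

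**Figure D5:**
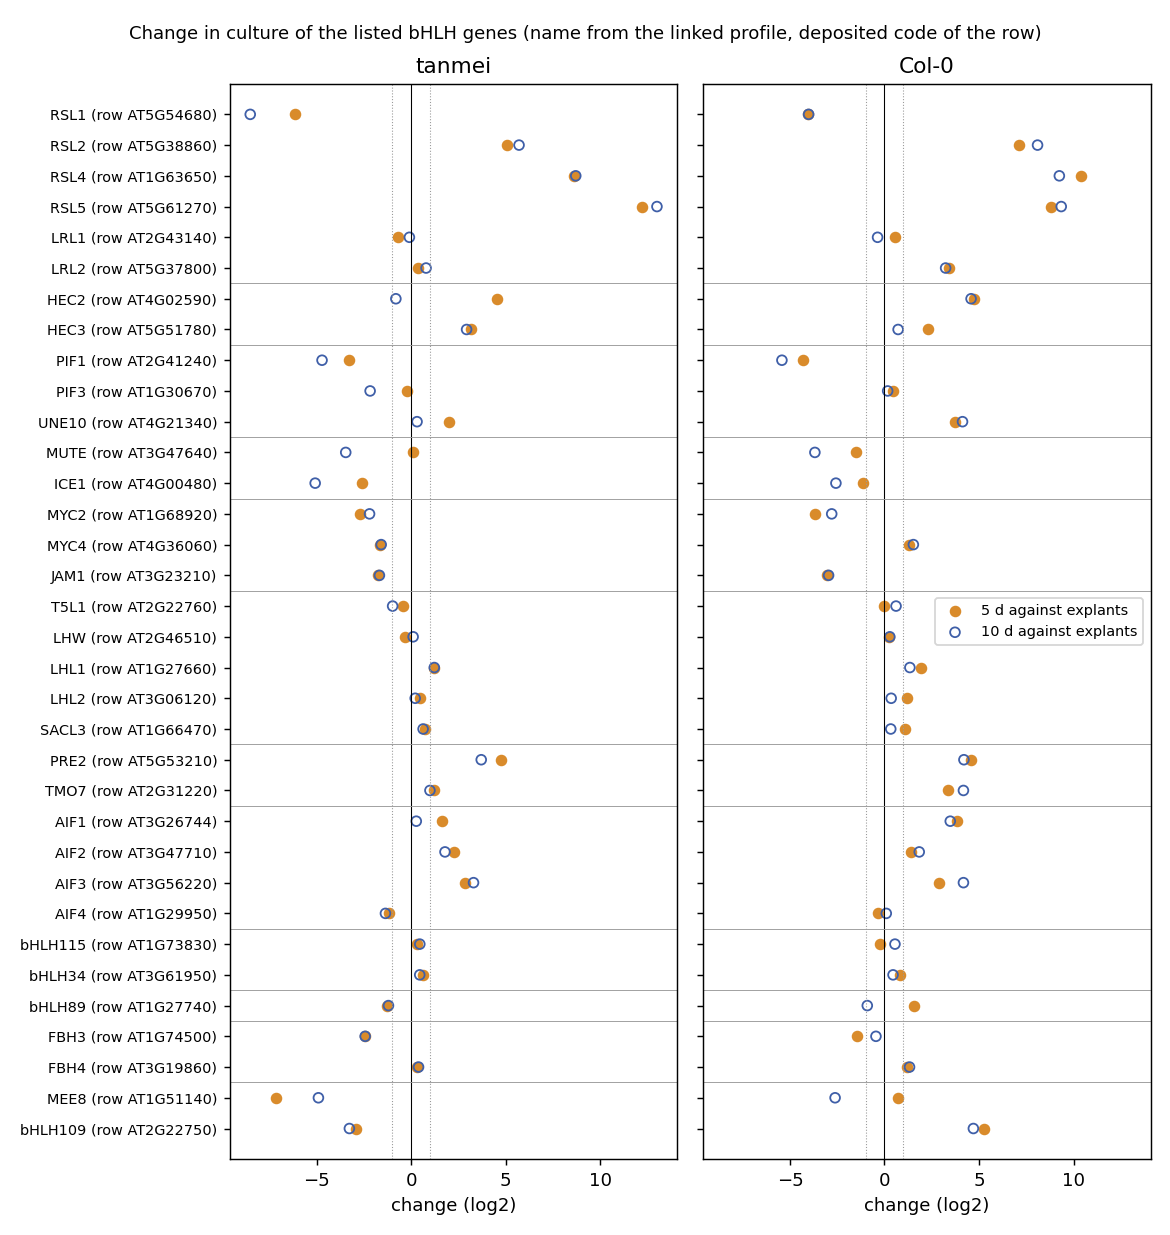
Change against explants at 5 d (filled) and 10 d (open) in tanmei (left) and Col-0 (right), log2, for the 34 listed bHLH genes, each named by its linked profile with the deposited code of the row in brackets; grey lines part the lists and dotted lines mark 2-fold. bHLH109 and MEE8 differ most between the panels at 5 d, with differences of -8.23 and -7.88.

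Read by deposited code, the same lists give other rows and other counts. The 10 iron genes were then 2 higher and 7 lower at 5 d in tanmei, and 2 higher and 8 lower in Col-0. The 5 stomatal genes were 3 higher and 1 lower in tanmei and 4 higher and 1 lower in Col-0. The 9 root hair genes were 2 higher and 3 lower in tanmei and 4 higher and 1 lower in Col-0. The 4 rows of the PRE antagonists were 1 higher and 2 lower in tanmei and, of 3 counted, 2 higher and 1 lower in Col-0, and the 4 PRE rows were 2 higher and 1 lower in tanmei and 1 higher and 1 lower in Col-0. The 9 PIF rows were 4 higher and 3 lower in tanmei and 2 higher and 2 lower in Col-0. The counts of these lists thus depend on which codes are used, and no direction is given to any list as a whole.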

How the data were processed

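The authors ran SYBR Green quantitative RT-PCR and took Ct values with the instrument's software. The deposited matrix holds mean Ct per row and group, each a mean of the replicates with a Ct and not scaled to a reference gene. Deposited fold changes are the authors' own comparisons and were not used. There is no depth in PCR, and how precise a value is cannot be read from these files.

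Rows labelled bHLH were taken as members. Levels were block median Ct minus Ct, with an empty Ct set to 40, and a comparison counted rows with a Ct below 40 in at least 1 group. Thresholds of 2-fold and 10-fold replaced a test. Profiles of the study's table of modulated genes were sought among the rows in an order-preserving match, with an offset per block and column and a root mean square difference below 1 cycle. Its values were used for nothing else. The steps were tested on simulated data. Named rows were the 5 largest rises and falls in 3 comparisons (5 d of culture in each genotype, and the explants) among rows with a Ct below 35, rows with no Ct in 1 group and below 32 in the other, and linked genes of the lists. The members and lists were chosen with earlier results of these data known. Codes were looked up in RefSeq (TAIR10.1), which held 153 of the 155. Python 3.11.15, pandas 2.3.3 and matplotlib 3.10.9 were used.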

Additional observations from a re-analysis of the deposited data

Results flagged for a closer look

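Among the named rows, 7 moved at least 2-fold in opposite directions in tanmei and Col-0 at 5 d. The difference was not tested, since each group is 1 deposited mean. By this measure 13 of 150 bHLH rows (8.67%) moved in opposite directions, and 5.28% of all rows of the panel. The named rows were in part picked for large changes at 5 d, so the 7 are not set against these shares. The largest belonged to row AT4G01460, without a linked profile, which changed by -8.92 in tanmei and by 6.10 in Col-0, a difference in log2 change of -15.02. Its Ct was 27.8, 37.5 and 30.8 in tanmei and 32.9, 27.0 and 29.2 in Col-0 at 0, 5 and 10 d, so that the 5 d values stand apart in both genotypes. Row AT1G68810, also without a linked profile, changed by 2.99 in tanmei and by at least -7.92 in size in Col-0, where no Ct was obtained at 5 d, a difference of 10.90. Its Ct was 38.2, 35.3 and 33.6 in tanmei and 33.1, 40 and 37.1 in Col-0, so that its tanmei change rests on weak values above 35. Row AT1G06150, whose profile is listed for a B3 gene, differed by -9.86, with no Ct in Col-0 explants. Row AT2G22750 with the profile of bHLH109 differed by -8.23. The smaller differences were 4.72 for row AT5G57150, -2.98 for row AT4G36060 with the profile of MYC4, and -2.86 for row AT1G27740 with the profile of bHLH89. The profiles of the B3 gene, bHLH109 and bHLH89 were among those that the study listed as differing between the genotypes in these data.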

How the results depend on the processing

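No paired analysis was possible because each group is 1 deposited mean per row, and for the same reason no replicate could be left out. The share of bHLH rows at least 2-fold higher and lower in 9 comparisons was recomputed with other block medians, with the median of the whole column, without centring, with Ct above 35 set to 35, with rows that gave a Ct, or a Ct below 35, in both groups, with members taken by the linked family, and, chosen after seeing the data, without the first 12 bHLH rows, among which the B3 profiles lay. Of 174 recomputed shares and detection counts, 161 stayed within 1.5 times the reported value, and of 81 recomputed medians 17 moved beyond the interval of the reported one, such as Col-0 at 10 d, at 0.84 against explants and 0.77 against 5 d without centring, against -0.17 and 0.04 with it. Without centring, lower rows in Col-0 at 10 d against explants were 22.4%, Col-0 at 10 d against 5 d had 37.3% higher and 9.15% lower, tanmei explants had 52.7% higher than Col-0, and tanmei at 10 d had 14.5% higher and 50.7% lower than Col-0. Without centring the median of all rows lay between -0.95 and 0.83 in the 9 comparisons, against -0.44 to 0.21 with it. With members by the linked family, which holds only profiles chosen as changed in Col-0, tanmei had 43.5% higher and 27.5% lower at 5 d and 42% higher and 31.9% lower at 10 d against explants, so that its direction turned, Col-0 had 62.3% higher and 17.4% lower at 5 d and 58% higher and 15.9% lower at 10 d, and 6.06% were lower in tanmei than in Col-0 explants. A Ct of 35 or more is weak: with a limit of Ct 35, 138, 137 and 140 bHLH rows counted as detected in tanmei and 128, 134 and 138 in Col-0 at 0, 5 and 10 d.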

Other observations

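Profiles that the study's table lists as bHLH but that lay on rows of other families fall outside the counts above. Row AT1G22070, labelled bZIP, carried the profile of HEC1, a relative of HEC2 and HEC3, with Ct 31.2, 25.7 and 29.1 in tanmei and 36.5, 29.3 and 29.5 in Col-0 at 0, 5 and 10 d. It rose at 5 d by 6.33 in tanmei and by 7.33 in Col-0, and tanmei stood above Col-0 at each time. The HEC1 profile lay 0.83 cycles from this row, near the limit of 1 cycle. Row AT1G32150 carried the profile of ALC, a fruit-opening gene, with 25.2, 25.5 and 25.3 in tanmei and 30.7, 28.3 and 27.1 in Col-0. The ALC profile was thus flat in tanmei (0.58 at 5 d) and rose in Col-0 (2.54 at 5 d). Row AT1G13600 carried the profile of AT5G65320, which rose by 6.15 in tanmei and by 6.64 in Col-0 at 5 d. LRL3 (row AT1G03970), a root hair gene, changed by -0.85 in tanmei and by 2.76 in Col-0 at 5 d, and SAC51 (row AT1G08320), a relative of SACL3, by 1.58 and 1.33. The study had listed LRL3 too for a profile that differed between the genotypes in these data. All 8 profiles of this kind rose 2-fold or more at 5 d in Col-0, a genotype in which the study had chosen them as changed.

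The study chose its profiles by change in Col-0, so rows with and without a linked bHLH profile are given as values only. At 5 d in tanmei 26 of 61 linked rows were higher and 19 lower, against 23 higher and 46 lower of the 90 others, where all rows of the panel had 28.7% higher and 39.4% lower. At 5 d in Col-0 35 of 61 linked rows were higher and 12 lower, against 16 higher and 41 lower of the 92 others, where all rows had 28.9% and 38%.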
